A study of Mus musculus with 12 samples.

Results

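The 10 genes described here encode the 3 TGF-β ligands (Tgfb1, Tgfb2, Tgfb3), the latent TGF-β binding proteins Ltbp1 and Ltbp2, the receptors Tgfbr1, Tgfbr2, Eng and Acvrl1, and the target gene Tgfbi. They were chosen by name, as ligands, receptors and targets of one pathway, and all 10 were found among the 50559 genes of the count table. RNA was measured in whole retinas of WT C57BL6/J mice at P28, with 3 libraries in each of 4 groups. IgG and IgG+Mino mice were given 30 µg of an IgG isotype control on P1, and APB5 and APB5+Mino mice 30 µg of APB5, a rat monoclonal antibody against mouse PDGFRβ, the receptor through which pericytes are recruited to vessels. The IgG+Mino and APB5+Mino groups also received minocycline, a tetracycline with anti-inflammatory action, by daily intraperitoneal injection at 45 mg/kg from P5 to P27. No group carried a transgene or a deletion. The 3 libraries of a group came from separate mice, and the labels do not give their sex.

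TGF-β ligands are secreted in a latent form, bound to their own propeptide and, through it, to latent TGF-β binding proteins of the extracellular matrix. Once released, a ligand binds the type II receptor TGFBR2, which recruits and phosphorylates the type I receptor TGFBR1, or ACVRL1 (ALK1) with the co-receptor endoglin on endothelial cells, and SMAD proteins carry the signal to target genes. In the retina the pathway is known for its part in contacts between pericytes and endothelium and for maintaining microglia in their resting state, and TGF-β2 is the isoform best known from ocular tissues and fluids.

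Each library held 52740545 to 59411044 counts. A level is given in CPM, the share of a library's counts that fell on a gene after TMM scaling over all 12 libraries, and it cannot tell fewer cells of a type from less RNA per cell. APB5 replicate 3 stood apart from the other 11 libraries, with a score of 126.4 on the first principal component against −53.9 to 25.69. Its photoreceptor genes summed to 12800 CPM, against 48100 to 72600 CPM elsewhere, so photoreceptor markers were present in all 12 libraries but much lower in this one. Inner retinal neuron markers were not lower there, at 1860 CPM against 1610 to 1860 CPM elsewhere. Xist, the RNA of the inactive X chromosome, was at 815 CPM or more in the 3 IgG libraries, in APB5 replicate 3 and in APB5+Mino replicate 3, and at 0.68 CPM or less in the other 7. In IgG+Mino against IgG, minocycline and sex therefore cannot be told apart, and without APB5 replicate 3 the same holds for APB5 and sex in APB5 against IgG. Results that rest on this library are given with and without it.

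Among the ligands, Tgfb2 transcripts were the most abundant and Tgfb1 transcripts the least. On the scale of CPM per kilobase of exon, which allows genes to be compared, the IgG level of Tgfb2 was 12 ± 1.43, that of Tgfb3 4.92 ± 0.337 and that of Tgfb1 0.45 ± 0.0916 (mean ± SD, n = 3 libraries). The type I receptor Tgfbr1 was at 4.57 ± 1.46 CPM per kilobase in IgG retinas, and its type II partner Tgfbr2 at 0.554 ± 0.0337. Between these lay Acvrl1 (2.05 ± 0.256), Eng (1.65 ± 0.233), Ltbp2 (1.64 ± 0.723) and Ltbp1 (1.26 ± 0.314), all in CPM per kilobase. Tgfbi had the lowest level of the 10, 0.311 ± 0.124 CPM per kilobase. The ranges of neighbouring genes overlapped among Tgfb3 and Tgfbr1, from Acvrl1 down to Ltbp1, and from Tgfbr2 down to Tgfbi, so the order within these sets was not resolved by 3 libraries.

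**Figure D1:**
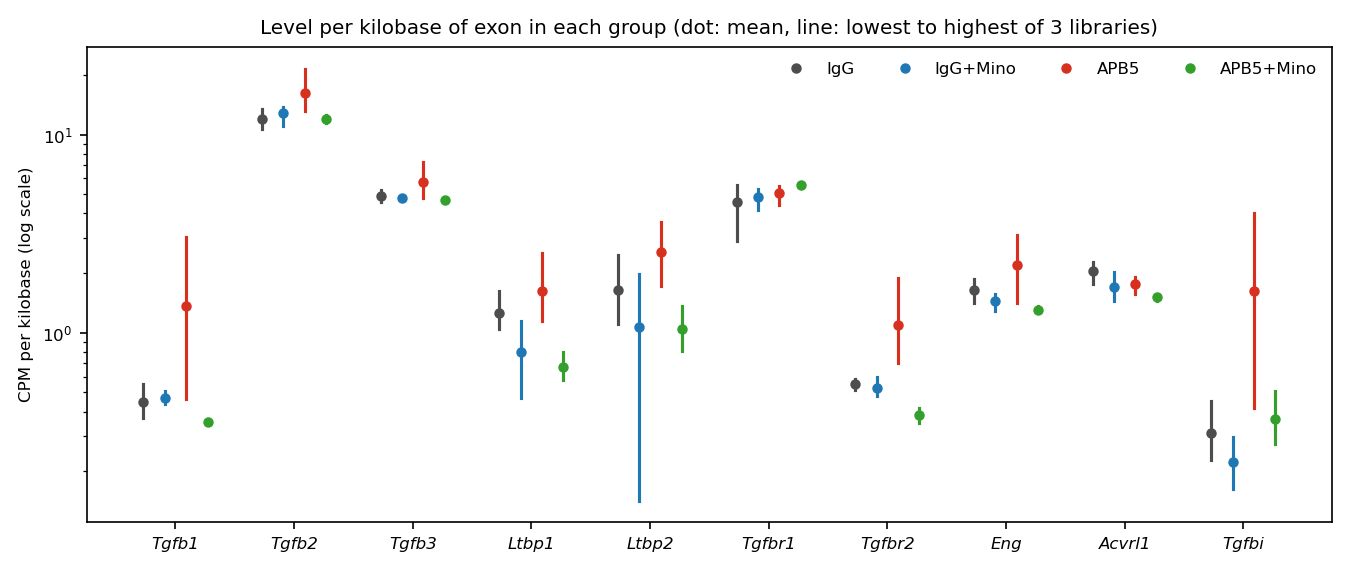
Level of each gene in CPM per kilobase of exon (log scale) in the 4 groups; the dot is the mean and the line runs from the lowest to the highest of 3 libraries. Tgfb2 has the highest mean in every group, and the APB5 lines of Tgfb1, Tgfbr2 and Tgfbi extend far above those of the other groups.

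Tgfb1 (chromosome 7, 25386390 to 25404506 on GRCm39) encodes the ligand best known from immune cells and platelets. Its level was 1.89, 2.17 and 2.8 CPM in IgG replicates 1 to 3, and 2.59, 2.32 and 2.23 CPM in IgG+Mino. In APB5 it was 3, 2.35 and 15.4 CPM, and in APB5+Mino 1.86, 1.76 and 1.77 CPM. APB5 replicate 3 held several times the transcripts of any other library, and the other APB5 libraries lay near the IgG range. All 3 APB5+Mino libraries were below all 3 APB5 libraries and below all 3 IgG+Mino libraries.

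Tgfb2 (chromosome 1, 186354985 to 186438294) had 66.1, 75.3 and 84 CPM in IgG and 68.9, 85.9 and 85.6 CPM in IgG+Mino. APB5 retinas had 87.1, 82.2 and 134 CPM, and APB5+Mino retinas 76.1, 78.1 and 71.5 CPM. The APB5+Mino libraries were thus lower than every APB5 library, while APB5 overlapped with IgG. Tgfb3 (chromosome 12, 86102756 to 86126301) was the steadiest ligand, at 23.8 to 27.6 CPM in the other 11 libraries and at 37.8 CPM in APB5 replicate 3.

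Ltbp1 (chromosome 17, 75312519 to 75699507) encodes a matrix protein that tethers the latent complex. Ltbp1 transcripts were at 12, 17.4 and 11.2 CPM in IgG, and at 5.05, 8.37 and 12.2 CPM in IgG+Mino. They were at 12.2, 13.2 and 27 CPM in APB5, and at 6.98, 6.22 and 8.54 CPM in APB5+Mino. Every APB5+Mino library was below every APB5 library and below every IgG library, and IgG+Mino spanned both ranges.

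Ltbp2 (chromosome 12, 84829986 to 84923306) is a relative that does not bind the latent ligand and is known from the fibers that suspend the lens. It was the most variable member in IgG and IgG+Mino, with 9.06, 20.2 and 11.1 CPM in IgG and 1.16, 8.96 and 16.2 CPM in IgG+Mino. In APB5 it had 14.1, 18.8 and 29.7 CPM, and in APB5+Mino 6.62, 7.75 and 11.2 CPM. The lowest value, 64 counts in IgG+Mino replicate 1, came from the library with the lowest sum of fibroblast, sclera and meninges markers (132 CPM, where the other libraries reached up to 473 CPM), and the part of such tissue in this value was not tested. Ltbp1 and Ltbp2 were ordered almost alike over the 12 libraries (Spearman's rho 0.965, Pearson's r 0.852 on log2 CPM, and r = 0.843 without APB5 replicate 3), which share dissection and depth.

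Tgfbr1 (chromosome 4, 47353134 to 47414931), the type I receptor that phosphorylates SMAD2 and SMAD3, had the smallest difference between APB5 and IgG among the 10. It had 34.9, 36.7 and 19.1 CPM in IgG, 27.6, 33.8 and 34.9 CPM in IgG+Mino, 29.2, 36.3 and 35.7 CPM in APB5, and 37.1, 38 and 35.4 CPM in APB5+Mino. IgG replicate 3 held the lowest level, and APB5 replicate 3 was not set apart for this gene.

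Tgfbr2 (chromosome 9, 115913361 to 116004800), the type II receptor that binds the ligand first, had 4.55, 5.13 and 4.94 CPM in IgG and 4.22, 4.44 and 5.27 CPM in IgG+Mino. It had 6.2, 6.32 and 16.5 CPM in APB5, and 3.42, 3.68 and 3.08 CPM in APB5+Mino. The 3 APB5 libraries were the highest of the 12 and the 3 APB5+Mino libraries the lowest, with the IgG and IgG+Mino libraries in between. Tgfbr2 was the only member for which the libraries of APB5 and of APB5+Mino took both ends of the order in this way.

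Eng (chromosome 2, 32535543 to 32574661), the endothelial co-receptor endoglin, had 11, 14.6 and 12.9 CPM in IgG and 12.2, 10.1 and 11.3 CPM in IgG+Mino. In APB5 it had 16.1, 11.1 and 24.2 CPM, and in APB5+Mino 10.6, 10 and 10.1 CPM. The APB5+Mino libraries lay together below APB5, whose own 3 libraries spread widely. Acvrl1 (chromosome 15, 101025996 to 101043217), the endothelial type I receptor ALK1, ran the other way in APB5 replicate 3: it had 17.1, 15.9 and 13.3 CPM in IgG, 14.5, 13.8 and 11.8 CPM in APB5, and 10.9 to 15.3 CPM in the 2 minocycline groups.

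Tgfbi (chromosome 13, 56757336 to 56787375), a matrix protein induced by TGF-β, was detected at 34 to 108 counts in the other 11 libraries and at 1015 counts in APB5 replicate 3. Its level was 0.944, 1.72 and 0.864 CPM in IgG, 0.615, 0.779 and 1.13 CPM in IgG+Mino, 1.59, 1.57 and 15.2 CPM in APB5, and 1.93, 1.04 and 1.18 CPM in APB5+Mino. Apart from APB5 replicate 3, the libraries ran from 0.615 to 1.93 CPM and the groups overlapped.

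**Figure D2:**
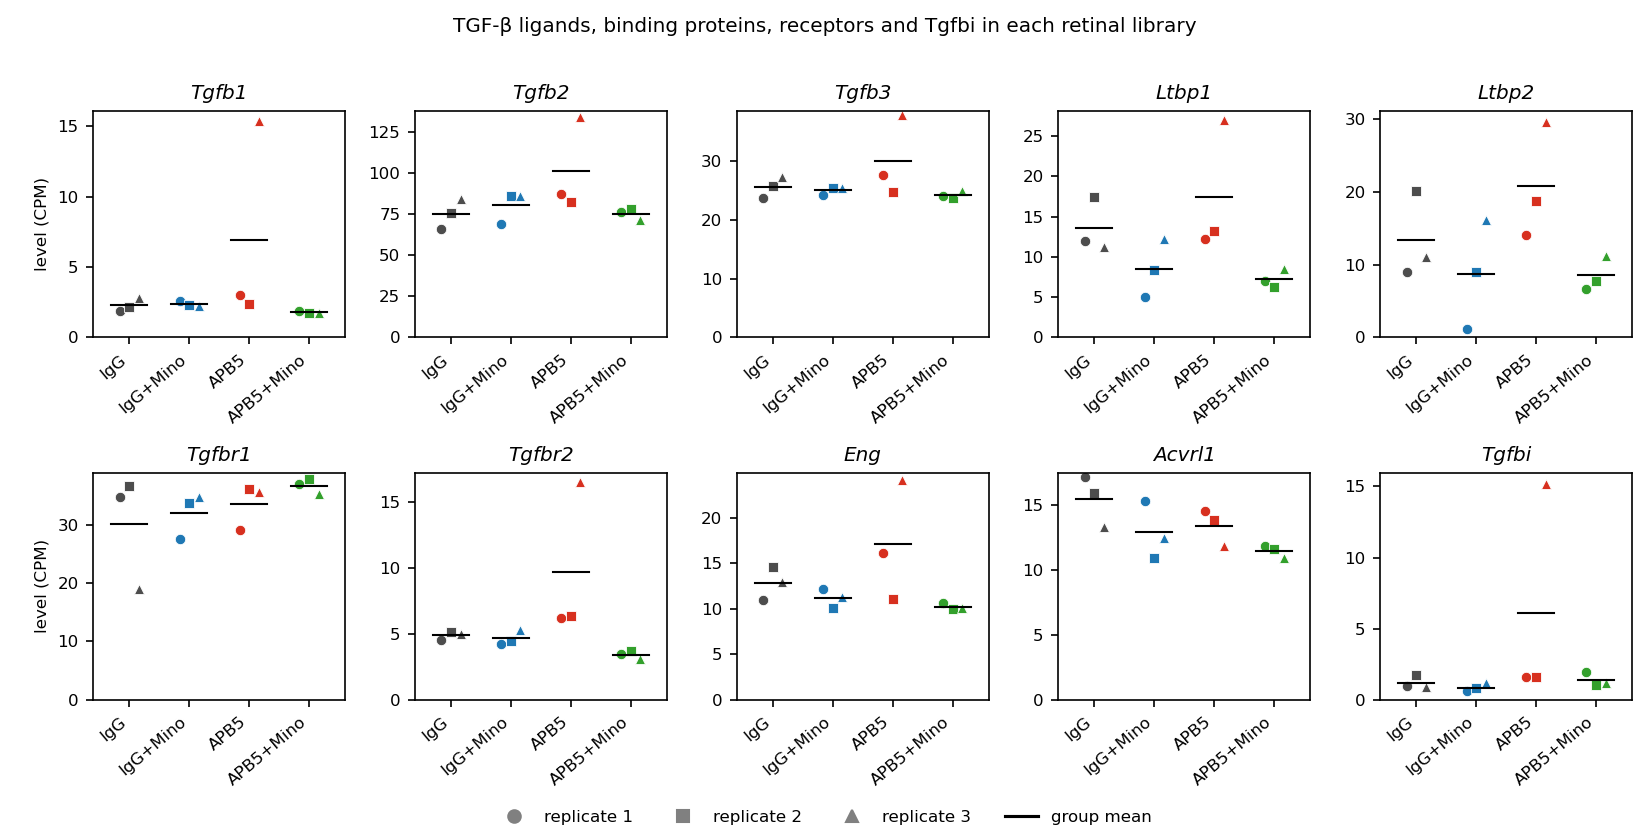
Level in CPM of each of the 10 genes in every library, by group; symbols mark the replicate number and black lines the group mean. In 8 of the 10 panels the highest point is APB5 replicate 3, for example 15.4 CPM of Tgfb1 and 16.5 CPM of Tgfbr2, and the exceptions are Tgfbr1 and Acvrl1.

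APB5 against IgG asks how blocking PDGFRβ after birth changed the pathway in the adult retina. Transcripts of 9 of the 10 members had higher mean values in APB5 than in IgG and those of Acvrl1 lower, with a median log2 fold change of 0.44 beside −0.002 over all 20350 genes tested. None of these differences passed the test: with P values from the quasi-likelihood test of edgeR, adjusted for all genes after Benjamini and Hochberg, 0 members had an adjusted P of at most 0.05 (0% of all genes had). At an unadjusted P under 0.05, edgeR gave 2 members, Tgfbr2 and Tgfbi, beside 7.23% of all genes. DESeq2 gave an adjusted P for 9 members, all but Tgfbi, and called 0 of them and 0.482% of all genes. Tgfbr2 was the 1 member with all APB5 libraries above all IgG libraries, a pattern that 7.79% of the genes tested showed.

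The log2 fold change of Tgfbr2 in APB5 against IgG was 1.01 (SE 0.40, adjusted P = 0.664, edgeR), and 0.36 (SE 0.17, adjusted P = 0.872) without APB5 replicate 3. Over 15 alternatives its adjusted P ranged from 0.0213 to 0.968, and its value was above 0 in all 15. Tgfbi had the largest value of the 10, 2.38 (SE 0.92, adjusted P = 0.664 by edgeR), which was 0.42 without that library. Tgfb1 followed with 1.61 (SE 0.70, adjusted P = 0.664 by edgeR), which was 0.23 without it. The other 6 positive values, from 0.17 for Tgfbr1 to 0.65 for Ltbp2, ranged from −0.09 for Ltbp1 to 0.29 for Ltbp2 without it, and the median of the 10 was then 0.15. When the model of all 12 libraries also took Xist into account, Tgfb1, Tgfbi and Tgfbr2 were called higher, and 6.97% of all genes were called. Xist was both high and low within a group only in APB5, where replicate 3 alone was high, and in APB5+Mino. The Xist term thus rests largely on these groups, and within APB5 it cannot be told apart from replicate 3.

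APB5+Mino against APB5 asks what minocycline changed in retinas that had received the antibody. Transcripts of 9 of the 10 members had lower mean values in APB5+Mino, with a median log2 fold change of −1.02 beside −0.02 over all 20281 genes, and Tgfbr1 had a higher one. Without APB5 replicate 3 the median of the members was −0.36, beside −0.005 over all genes. After adjustment, 0 members were called by edgeR's quasi-likelihood test, where 4.82% of all genes were. At an unadjusted P under 0.05, edgeR gave 5 members, all lower, and 19.2% of all genes were lower at that P. All 3 APB5+Mino libraries lay below all 3 APB5 libraries for 6 members, Tgfb1, Tgfb2, Ltbp1, Ltbp2, Tgfbr2 and Eng, a pattern found in 22.8% of all genes.

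The largest log2 fold changes here were those of Tgfbi (−2.14, SE 0.93) and Tgfb1 (−1.95, SE 0.72), with adjusted P of 0.147 and 0.106 by edgeR, and without APB5 replicate 3 they were −0.19 and −0.57. The 3 members nearest to the threshold were Ltbp2 at −1.30 (SE 0.32, adjusted P = 0.0553, edgeR), Ltbp1 at −1.28 (SE 0.33, adjusted P = 0.0581) and Tgfbr2 at −1.52 (SE 0.41, adjusted P = 0.0608). Eng had a value of −0.76 (SE 0.27, adjusted P = 0.103 by edgeR). The values of Tgfb2 (−0.44), Tgfb3 (−0.33), Acvrl1 (−0.23) and Tgfbr1 (0.11) were smaller in size, with adjusted P from 0.158 to 0.508 by edgeR.

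Without APB5 replicate 3, 9 members still had lower values in APB5+Mino than in APB5, and 3 of them, Tgfbr2, Ltbp1 and Ltbp2, passed the test. Their log2 fold changes in APB5+Mino against APB5 were −0.88 (SE 0.14), −0.81 (SE 0.15) and −0.95 (SE 0.21), with adjusted P of 0.00505, 0.00673 and 0.0143, in a fit by edgeR that called 26.6% of all genes. Tgfb1 (−0.57, SE 0.19), Eng (−0.41, SE 0.15) and Acvrl1 (−0.31, SE 0.10) had adjusted P of 0.0568, 0.078 and 0.0509 in that fit, and the value of Acvrl1 was larger in size than with all 6 libraries. In that fit APB5 held 2 libraries, both low in Xist, and APB5+Mino held 3, of which 1 was high. Over the 15 alternatives tried, the adjusted P ranged from 0.00289 to 0.216 for Tgfbr2, from 0.00274 to 0.219 for Ltbp1 and from 0.00177 to 0.35 for Ltbp2, and each of the 3 was lower in APB5+Mino in all 15. They were called in 6, 6 and 4 of the 15. DESeq2 called 5 members lower, these 3 with Tgfb1 and Eng, where it called 25.3% of all genes, and it gave no adjusted P for Tgfbi. Other fits called 4 members with all 12 libraries (21% of all genes), 4 with the Xist covariate (26.3%), 5 without APB5 replicate 2 (20.1%), 2 with no count filter (3.8%) and 1, Tgfbr2, with all libraries but APB5 replicate 3 in 1 fit (11.7%). With the replicate number as a block, although the labels give no pairing, 0% of all genes were called. The adjusted P of Tgfbr2, Ltbp1 and Ltbp2 was then 0.0894, 0.0641 and 0.0641 by edgeR.

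**Figure D3:**
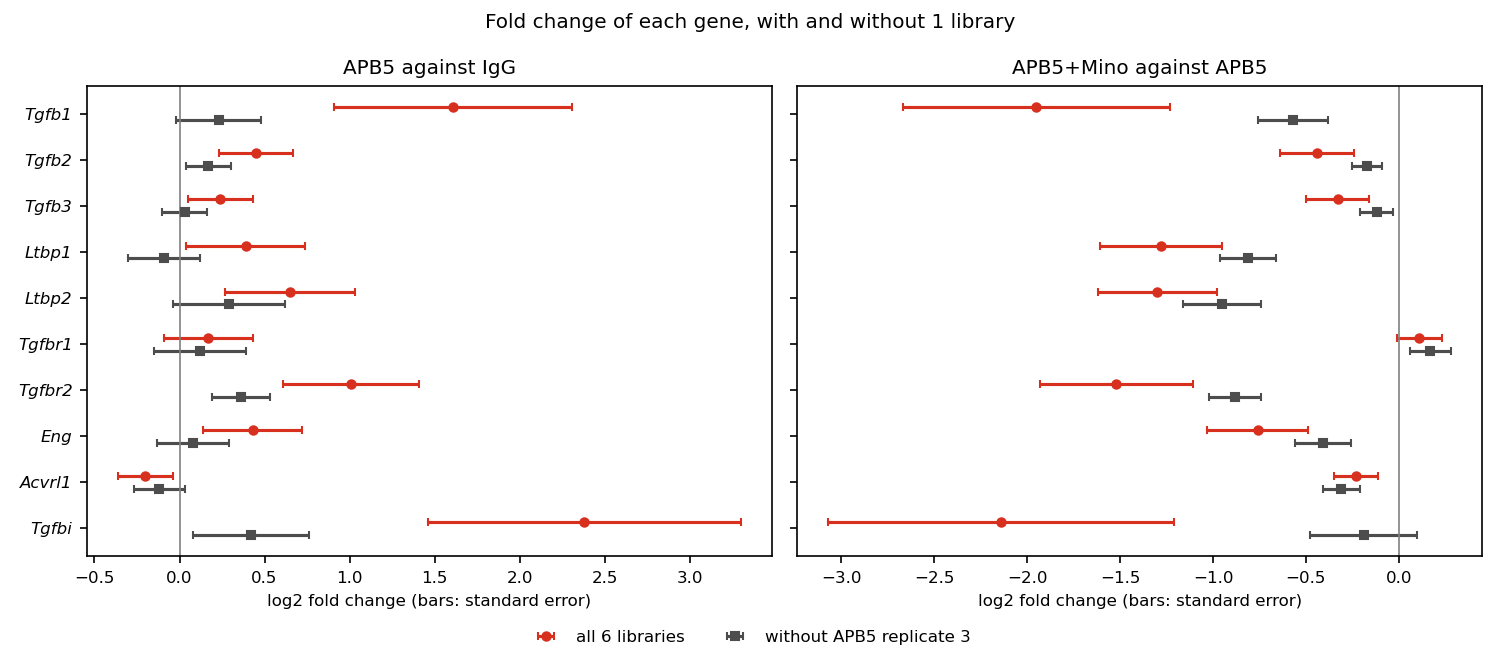
Log2 fold change of each gene with its standard error in APB5 against IgG and in APB5+Mino against APB5, from all 6 libraries (circles) and without APB5 replicate 3 (squares). Without that library, Tgfbi moves from 2.38 to 0.42 and from −2.14 to −0.19, and Tgfbr2 moves from −1.52 to −0.88, Ltbp1 from −1.28 to −0.81 and Ltbp2 from −1.30 to −0.95 in APB5+Mino against APB5.

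Both comparisons share the 3 APB5 libraries, so opposite signs in them are not separate evidence. IgG+Mino against IgG, which shares none of these, asks what minocycline changed without the antibody. The members had a median log2 fold change of −0.13 beside −0.01 over all genes, 0 members were called by edgeR (0.0298% of all genes were) or by DESeq2 (0.273%), 0 members had an unadjusted P under 0.05 (8.37% of all genes had), and 0 had groups that did not overlap (7.03% of all genes were higher and 7.35% lower in this way). Ltbp1 had the value farthest from 0, −0.66 (SE 0.30, adjusted P = 0.585, edgeR). That of Tgfbr2 was −0.07 (SE 0.18). All 3 IgG libraries were high and all 3 IgG+Mino libraries low in Xist. With Xist as a covariate in the model of all 12 libraries Tgfb1 moved from 0.06 to 1.37, Tgfbi from −0.46 to 1.30 and Tgfbr2 to 0.57, with none of them called. Neither group held both high and low Xist, so the Xist term came largely from APB5, with its replicate 3, and APB5+Mino.

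APB5+Mino against IgG+Mino compares the antibody with its control under minocycline. The median over members was −0.11 beside −0.009 over all 20049 genes, and 0 members were called by edgeR's test, where 8.09% of all genes were, or by DESeq2, where 17.6% were. At an unadjusted P under 0.05, edgeR gave 2 members, both lower, beside 29.3% of all genes. Tgfbr2 came nearest, at −0.45 (SE 0.15, adjusted P = 0.0973 by edgeR), followed by Tgfb1 at −0.40 (SE 0.17, adjusted P = 0.165). Both transcripts were lower in every APB5+Mino library than in every IgG+Mino library, as were 17.6% of all genes, and Tgfbr1 was higher in every one, as were 17.7%. Tgfbi had a value of 0.70 (SE 0.31, adjusted P = 0.176 by edgeR), and its groups overlapped.

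The test of whether the 2 antibody contrasts differ is the interaction, fitted on all 12 libraries. It called 0 members and 0.0141% of all genes, and at an unadjusted P under 0.05 it gave 2 members, both below 0, beside 17.1% of all genes. Tgfbr2 had an interaction of −1.44 on the log2 scale (SE 0.45, adjusted P = 0.183, edgeR), and −0.82 (SE 0.21, adjusted P = 0.114) without APB5 replicate 3. Its adjusted P ranged from 0.0284 to 0.375 over 19 alternatives. Tgfb1 had −1.99 (SE 0.78, adjusted P = 0.236 by edgeR), and −0.64 without it. DESeq2 called Tgfbr2 in this test, where it called 3.38% of all genes, and it gave no adjusted P for Tgfbi. With the Xist covariate edgeR called Tgfb1 and Tgfbr2, where 4.61% were called. That covariate rests largely on APB5, with its replicate 3, and APB5+Mino.

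APB5 replicate 3 was the highest of the 12 libraries for 8 of the 10 members, as it was for 24.6% of 21228 genes. Its level was at least 2 times the median of the other 11 libraries for 6 members, Tgfbi (13.4 times), Tgfb1 (6.91 times), Tgfbr2 (3.63 times), Ltbp2 (2.68 times), Ltbp1 (2.42 times) and Eng (2.18 times), and for 12.3% of all genes. Markers of several cell types moved with these levels. In that library the 16 microglia and macrophage markers summed to 643 CPM (31.7 to 102 CPM in the other 11 libraries) and 15 of them were at their highest. The 9 pigment epithelium markers summed to 834 CPM (47.2 to 176 CPM), with all 9 at their highest, and the 12 fibroblast, sclera and meninges markers to 473 CPM (132 to 236 CPM). Müller glia and astrocyte markers summed to 11800 CPM (4350 to 6480 CPM), with 6 of 11 at their highest, among them Apoe at 4790 CPM and Clu at 2560 CPM, while Glul (1570 CPM) and Kcnj10 (54.2 CPM) were at their lowest. Endothelial markers summed to 495 CPM (405 to 571 CPM), with 8 of 15 at their highest and Podxl, at 103 CPM, at its lowest. The pericyte and smooth muscle sum was low at 461 CPM (613 to 1140 CPM) through Vtn (181 CPM, and up to 1010 CPM elsewhere), while 9 of the 12 markers of this list were at their highest, for example Rgs5 at 162 CPM (at most 89 CPM elsewhere) and Pdgfrb at 38 CPM (at most 20.1 CPM). The part of these cells in the members' levels was not tested.

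Cell type markers also differed between APB5+Mino and APB5 apart from that library. The microglia and macrophage sum was 31.7 to 35.8 CPM in APB5+Mino, 86.5 to 643 CPM in APB5, 65 to 102 CPM in IgG and 50.8 to 58.6 CPM in IgG+Mino, so that APB5+Mino was lowest. Endothelial markers summed to 405 to 453 CPM in APB5+Mino and 495 to 553 CPM in APB5. Those of fibroblast, sclera and meninges summed to 168 to 181 CPM in APB5+Mino and 223 to 473 CPM in APB5, and those of the pigment epithelium to 47.2 to 79.7 and 114 to 834 CPM. No marker of any list was at 0 in all libraries. Whether the lower Tgfbr2, Ltbp1, Ltbp2 and Eng levels followed these cells was not tested.

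**Figure D4:**
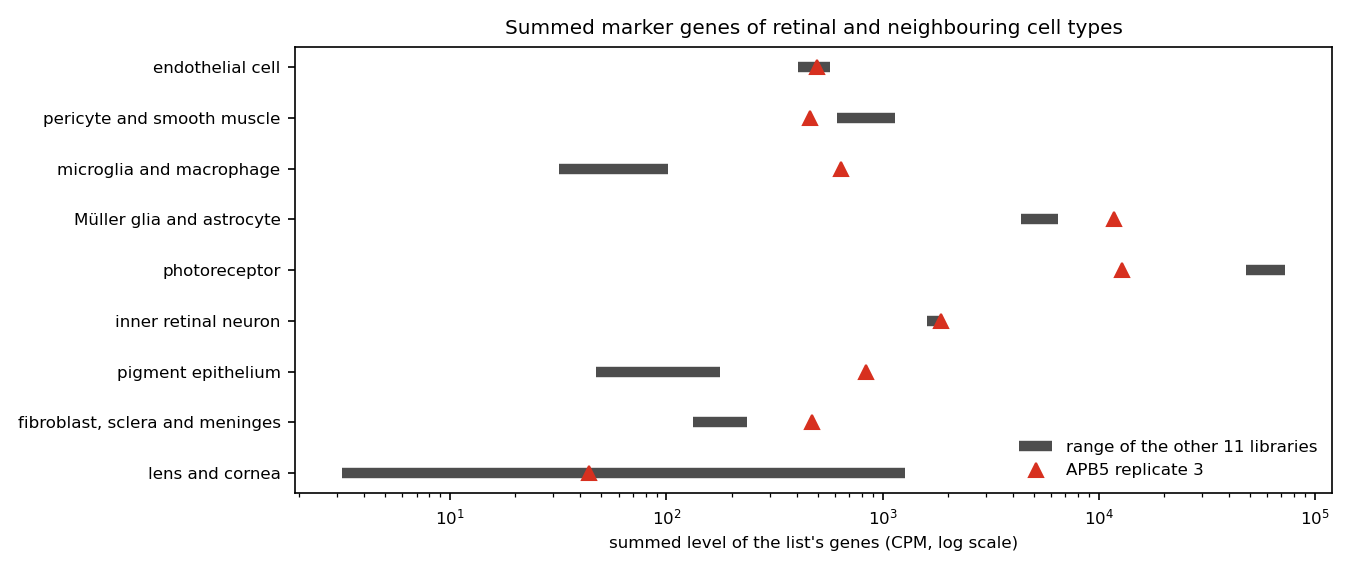
Summed level in CPM (log scale) of marker genes for 9 cell types in APB5 replicate 3 (triangle) and its range over the other 11 libraries (bar). The triangle lies above the bar for microglia and macrophages (643 against at most 102 CPM), Müller glia and astrocytes, pigment epithelium and fibroblasts, and below it for photoreceptors and for pericytes and smooth muscle, although 9 of 12 markers were highest in APB5 replicate 3.

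A wider list of 85 other genes of the pathway showed its largest differences among target genes. In APB5+Mino against APB5, 5 of the 83 genes tested were called by edgeR, all lower and all targets: Id1, Id2 and Id3, transcription regulators induced by the BMP and ALK1 branch, the matricellular Ccn1, and Junb, an AP-1 subunit, which was named after its values were seen. Of all genes, 2.03% were called lower. Id1 had 25.5, 18.5 and 28.7 CPM in APB5 and 7.82, 6.5 and 8.03 CPM in APB5+Mino, for a difference of −1.71 on the log2 scale (SE 0.20, adjusted P = 0.043, edgeR). For Ccn1 it was −3.01 (SE 0.42, adjusted P = 0.043), for Id2 −1.44 (SE 0.22, adjusted P = 0.0444) and for Id3 −2.10 (SE 0.39, adjusted P = 0.0461), all by edgeR. Of the 83 genes, 43 had an unadjusted P under 0.05 and a lower value (19.2% of all genes), and 3 a higher one (16.7%). The levels of these 4 genes and of Junb in the 3 APB5+Mino libraries were the lowest of the 12.

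The 5 target genes were also lower without APB5 replicate 3, with log2 fold changes from −2.71 to −1.17, and 31 genes of the list were then called lower and 4 higher (26.6% of all genes were called in either direction). With the replicate block, however, 0 of the list were called (0% of all genes) and the 5 genes had an adjusted P of 0.0641 each by edgeR. None of the list was called without APB5 replicate 1 (0.00479% of all genes were) or without any 1 of the APB5+Mino libraries (0%). With library size in place of TMM none was called either, beside 0.0247% of all genes, so almost no gene of any kind was called in these fits. In IgG replicate 3 the levels of Id1, Id2, Id3, Ccn1 and Junb were well above those of the other IgG libraries, for instance 196 CPM of Ccn1 against 17.9 and 26.8 CPM.

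By role, 29 of 29 target genes had lower mean values in APB5+Mino than in APB5 (median log2 fold change −1.94, and −0.65 without APB5 replicate 3). So did 14 of 14 genes of latency and activation (−0.80 and −0.33), 12 of 14 antagonists and feedback genes (−0.87 and −0.36) and 9 of 10 other ligands of the family (−0.90 and −0.29). Other receptors and co-receptors were lower in 5 of 10 (median 0.04) and the signal-transducing Smads in 2 of 6 (median 0.22). The median over all genes was −0.02.

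In APB5 against IgG, 0 of the 82 genes of the list tested were called by edgeR (DESeq2 called 1, Cdkn1a) and 32 had an unadjusted P under 0.05, all higher (5.22% of all genes). Of the 82, 30 had APB5 libraries all above the IgG libraries and 0 all below (7.79% and 7.89% of all genes), and the median log2 fold change was 0.73, or 0.24 without APB5 replicate 3. Among the smallest P values were those of Bgn, the matrix proteoglycan biglycan (4.52, SE 1.30), and of Cdkn1a, the cell cycle inhibitor p21 (1.94, SE 0.58), each with an adjusted P of 0.664 by edgeR. Bgn had 13.6, 12.8 and 289 CPM in APB5 and 2.89 to 5.57 CPM in IgG, so that without APB5 replicate 3 its value was 1.5. Without that library the value of Cdkn1a was 0.86.

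Under minocycline the antibody was accompanied by lower levels of 8 of the 83 genes tested (APB5+Mino against IgG+Mino, edgeR), where 3.28% of all genes were called lower, and by higher levels of 0. The value of Id1 was −1.15 on the log2 scale (SE 0.12, adjusted P = 0.0114, edgeR) and that of Id2 −1.02 (SE 0.12, adjusted P = 0.0114). Ccn2, a matricellular target also known as CTGF, had −1.28 (SE 0.18, adjusted P = 0.0125, edgeR) and Ccn1 −2.53 (SE 0.41, adjusted P = 0.0162). The others called lower were Id3, Junb, Mmp14, a membrane protease that can release latent TGF-β, and Lrrc32, which holds latent TGF-β on the cell surface, the last 4 named after their values were seen. None of the list was called without IgG+Mino replicate 3 (0.0244% of all genes were), without APB5+Mino replicate 2 (0%) or without APB5+Mino replicate 3 (0.00978%). The same held in a fit of all 12 libraries, with or without Xist as a covariate (0% of all genes in both), so almost no gene of any kind was called in these fits.

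In IgG+Mino against IgG 0 of 82 genes of the list were called by edgeR or DESeq2 and 7 had an unadjusted P under 0.05, beside 8.37% of all genes. The smallest P values were those of Smurf1, a ubiquitin ligase acting on receptors and Smads (0.41, SE 0.11), Cdkn1a (0.55, SE 0.20) and Furin, the protease that cleaves the TGF-β propeptide (0.28, SE 0.11), each with an adjusted P of 0.585. The interaction called 0 of 83 by edgeR (4 by DESeq2, and 34 had an unadjusted P under 0.05, all below 0, as 9.08% of all genes did). Its smallest P values were those of Lrrc32 (−1.77, SE 0.48, adjusted P = 0.159, edgeR), Bgn (−5.03, SE 1.40, adjusted P = 0.161) and Ccn2 (−1.98, SE 0.57, adjusted P = 0.168).

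**Figure D5:**
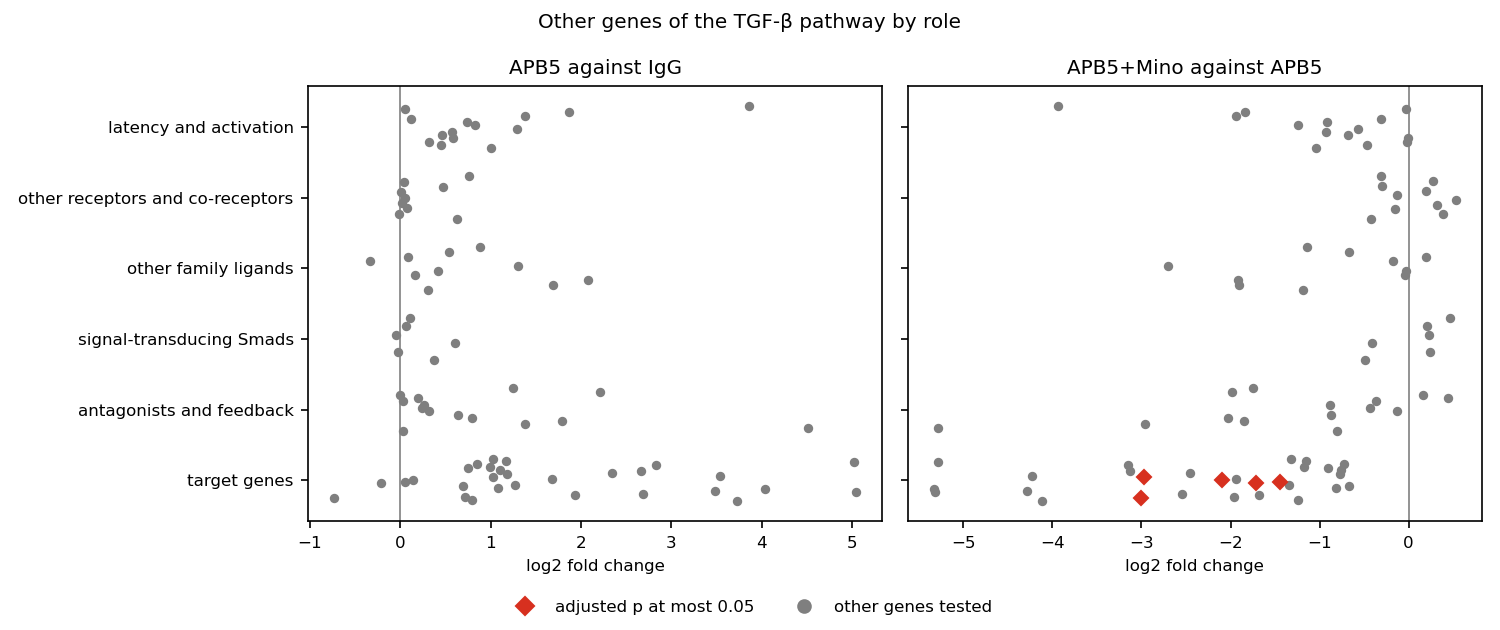
Log2 fold change of the genes of the wider list by role, in APB5 against IgG and in APB5+Mino against APB5; each point is a gene, and diamonds have an adjusted P of at most 0.05. The 5 diamonds are target genes, and points of the Smads and receptors lie less than 1 from 0 in both panels.

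Promoter sequences were examined because SMAD proteins, the pathway's own transcription factors, bind short motifs and several members moved together in APB5 replicate 3. RefSeq promoters (GRCm38.p6) were found for 8 of the 10 members, 10 promoters in all, and Tgfb3 and Acvrl1 had none in the table. The 250 bases upstream of each annotated start were searched on both strands for CAGACA, which holds the SMAD binding element, and for GGCGCC, a GC-rich motif bound by SMADs. Each window matched GRCm39 at 1 place, and coordinates are given on that build. CAGACA was found in 3 of the 10 promoters, 1 each of Tgfb2, Tgfbr1 and Ltbp1, and in 17.1% of 32851 promoters of 27025 genes. GGCGCC was found in 2 of the 10 promoters, those of Tgfbi and of the first Tgfbr1 start, and in 9.59% of all promoters. Neither motif was found in the windows of Tgfbr2, Tgfb1, Ltbp2 and Eng. The median GC content was 60% in the members' windows and 52.4% over all promoters. Not all windows lay outside transcripts on GRCm39. All 250 bases of the Tgfbr2 and Ltbp2 windows, 167 of the Tgfb2 window and 161 of the Eng window fell in annotated exons. So did 88 bases of the first Tgfbr1 window, 63 of Tgfbi, 37 of Tgfb1 and 5 of the first Ltbp1 window. The windows of Tgfbr2 and Eng lay inside the gene, and that of Tgfb2 did so in part. In the second Tgfbr1 window 220 bases were exon of another gene, Gm32435. The absence of a motif is thus a statement about these windows only.

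Ltbp1 is shown in full because it has 2 annotated starts that differ in these letters. The first start (chr17:75312274-75312523, plus strand) held neither motif, and the second (chr17:75485526-75485775, plus strand) held CAGACA at 2 places on the opposite strand, starting 149 and 98 bases upstream. Capitals mark the motif, read here as TGTCTG, and the runs end at the base before the start.
Ltbp1 start 1: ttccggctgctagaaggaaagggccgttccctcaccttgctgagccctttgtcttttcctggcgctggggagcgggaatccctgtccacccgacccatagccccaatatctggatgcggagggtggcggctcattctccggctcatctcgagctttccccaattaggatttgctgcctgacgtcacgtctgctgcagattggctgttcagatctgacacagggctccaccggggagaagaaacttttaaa
Ltbp1 start 2: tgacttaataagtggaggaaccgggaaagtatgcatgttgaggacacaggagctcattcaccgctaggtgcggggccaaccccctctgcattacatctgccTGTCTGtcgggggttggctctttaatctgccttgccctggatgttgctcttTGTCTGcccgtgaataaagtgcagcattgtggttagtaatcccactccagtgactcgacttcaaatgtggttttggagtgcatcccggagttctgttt

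For the other members with a motif, the 30 bases around it are shown, from the minus strand for Tgfb2 (chr1:186438373-186438402) and from the plus strand for both Tgfbr1 starts (chr4:47352977-47353006 and chr4:47386001-47386030) and for Tgfbi (chr13:56757310-56757339). The motif, in capitals, starts 204 bases upstream in Tgfb2, 233 and 203 bases upstream in the 2 Tgfbr1 promoters, and 77 bases upstream in Tgfbi.
Tgfb2: ccttggtgatcaCAGACAgtgactactgca
Tgfbr1 start 1: ggctggagtaaaGGCGCCcagcggtgaggg
Tgfbr1 start 2: tttcgaactcagCAGACAgccccacggtcc
Tgfbi: cgtggtctgggaGGCGCCggctgcccttcc
These matches are shared letters only, and no binding was measured in these libraries.

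Transcripts of the members were estimated by the authors as 1 mean signal per group, so no spread can be given. Tgfb1 and Tgfb3 were each represented by 1 transcript. For Tgfb2 a single transcript held 91.4% to 94.6% of the gene's summed signal in the 4 groups, and for Tgfbr2 a single one held 81.6% in IgG, 96.2% or more in APB5 and 99.9% in both minocycline groups. The leading transcript of Ltbp1 held from 41.9% in IgG+Mino to 78.1% in APB5, and that of Tgfbr1 from 51.7% in APB5 to 87.5% in IgG+Mino. For Eng, Ltbp2 and Acvrl1 the leading transcript was not the same in all groups. Reads were single and short, so that the share of each transcript is an estimate whose error is not known here.

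The genes whose levels were most like those of each member were named from 15811 genes with a mean of at least 1 CPM, by Pearson's r of log2 CPM over the 12 libraries, which share depth and dissection and include APB5 replicate 3. For Tgfbr2 they were Kcna6 (r = 0.990), Serpinh1 (0.985) and Fkbp9 (0.984), with r of 0.960, 0.947 and 0.945 without that library and Spearman's rho of 0.965, 0.937 and 0.958. Tgfb1 was most like Sema3b (r = 0.988), Csrp1 (0.987) and Snx9 (0.985), with 0.852, 0.972 and 0.809 without it. For Tgfb2 the genes were Axl (0.985), a receptor tyrosine kinase, Ccnd1 (0.980) and Rgma (0.979), with 0.938, 0.936 and 0.914 without it. Tgfb3 was followed by Myl9 (0.985), Igfbp7 (0.981) and Arc (0.976), with 0.917, 0.863 and 0.824 without it.

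For Ltbp2 the closest were Fbln1 (r = 0.980) and Ogn (0.967), matrix genes, with Otx1 (0.979), and these values stayed at 0.983, 0.961 and 0.975 without APB5 replicate 3. They were 0.938, 0.908 and 0.908 without that library and IgG+Mino replicate 1, the 2 libraries farthest from the median of Ltbp2. Ltbp1 was most like Frrs1 (0.959), Slc24a5 (0.945), a pigment cell gene, and Rarres2 (0.941), with 0.937, 0.923 and 0.921 without APB5 replicate 3. Eng followed Cd63-ps (0.962), Myl12a (0.955) and Slc18a2 (0.954), with 0.906, 0.869 and 0.867 without APB5 replicate 3. Without that library and APB5 replicate 1, the 2 farthest from the median of Eng, these were 0.881, 0.786 and 0.744. Tgfbi followed Rai14 (0.968), Ehd2 (0.968) and Tgif1 (0.967), a SMAD corepressor. Without APB5 replicate 3 the values of the 3 Tgfbi genes were 0.858, 0.823 and 0.826.

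The 2 members that did not peak in APB5 replicate 3 had other neighbours. Acvrl1 was most like Psmd9 (r = 0.960), Orc6 (0.946) and Brix1 (0.943), with 0.968, 0.948 and 0.941 without that library. Tgfbr1 was most like 1810013L24Rik (0.965), Epha7 (0.955) and Klhl32 (0.954), but without IgG replicate 3 and IgG+Mino replicate 1, the libraries farthest from its median, these values were 0.713, 0.747 and 0.843. The last relations thus rest in part on 2 libraries.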

How the data were processed

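RNA from whole retinas was sequenced as stranded poly-A libraries, in single reads, and per the labels and the study's methods reads were converted with bcl2fastq 2.20 and aligned and counted by the authors with DRAGEN (version not given in the sources used here) on mm39 with the NCBI annotation. Whether counting used strand is not given in the sources used here. The deposited gene table holds raw counts per library. 3 of its columns repeat the APB5 counts exactly and were not used. The deposited transcript tables hold the authors' group mean signal of scaled counts, used without tests, and their columns of fold changes and P values were not used.

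Counts were tested with edgeR 4.0.16 (R 4.3.3; quasi-likelihood, filterByExpr, TMM, prior count 2), on the 6 libraries of each pair of groups and on all 12 for the interaction, two-sided, with Benjamini-Hochberg adjustment over all genes tested. A call is an adjusted P of at most 0.05. All 10 members passed the count filter in each of the 5 comparisons. Exact permutation of 3 against 3 libraries cannot give a P below 0.1, so it was not used. The labels do not say whether replicate numbers pair libraries, and the main fits used no pairing. In APB5+Mino against APB5, libraries with the same replicate number deviated together (r = 0.134, 0.182 and 0.14). In APB5+Mino against IgG+Mino these r were 0.2, 0.104 and −0.0244. They were −0.0327, 0.139 and 0.114 in APB5 against IgG, and 0.00815, 0.0629 and −0.148 in IgG+Mino against IgG. Libraries with different numbers reached an r of up to 0.206, in APB5 against IgG. DESeq2 1.42.0, other scalings and filters, a replicate block, Xist as a covariate and leaving out each library were alternatives. No replicate pair agreed within sampling noise. CPM per kilobase used the exon union on GRCm39. The 10 members and all gene lists were chosen with earlier results of these data known. Genes named besides the members were Xist, from the wider list up to 4 called genes a direction with the smallest P (or the 3 smallest P where none was called), and the 3 genes most correlated with each member. 1 gene that this rule selects is not reported here.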

Additional observations from a re-analysis of the deposited data

Results flagged for a closer look

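Tgfbr2 met the criterion of opposite directions in 2 groups under the same contrast. Its log2 fold change was 1.01 in APB5 against IgG, where all 3 APB5 libraries were above all IgG libraries, and −0.45 in APB5+Mino against IgG+Mino, where all 3 APB5+Mino libraries were below all IgG+Mino libraries. The difference between both contrasts, tested as an interaction in edgeR over all 12 libraries, was −1.44 (SE 0.45, adjusted P = 0.183) and did not pass the threshold. Marker sums of microglia and macrophages, Müller glia and astrocytes, pigment epithelium, and fibroblasts, sclera and meninges were highest in APB5 replicate 3. Each was lower in APB5+Mino than in APB5. In the other APB5 libraries the microglia and macrophage sum was 86.5 to 98.4 CPM (65 to 102 CPM in IgG). The pigment epithelium sum was 114 to 135 CPM there (93.7 to 176 CPM in IgG). That of Müller glia and astrocytes was 5950 to 6480 CPM (4960 to 6440 CPM in IgG). That of fibroblasts, sclera and meninges was 223 to 236 CPM (166 to 203 CPM in IgG). The part of these cells was not tested.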

How the results depend on the processing

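Of the results under alternatives, 709 kept their direction and their side of the threshold, 30 moved past it and 31 changed sign. Tgfbi had no adjusted P from DESeq2 in APB5 against IgG, APB5+Mino against APB5 and the interaction. It was counted there as not called. The number of members called in APB5 against IgG was 0, and 3 with the Xist covariate. In APB5+Mino against APB5 it was 0, but 5 with DESeq2, 2 with no count filter, 4 with all 12 libraries, 4 with the Xist covariate, and 1 with all libraries but APB5 replicate 3 in 1 fit, which was chosen after seeing the data. It ranged from 0 to 5 with 1 library left out, with 5 without APB5 replicate 2 and 3 without APB5 replicate 3. In the interaction it was 0, but 1 with DESeq2 and 2 with the Xist covariate. With the replicate block 0 members were called in every comparison. The block also took the called genes of APB5+Mino against APB5 from 977 to 0. It took those of APB5+Mino against IgG+Mino from 1621 to 4045. The labels do not say whether replicate numbers pair libraries.

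Log2 fold changes that changed sign were mostly near 0. In APB5 against IgG, Ltbp1 ranged from −0.09 to 0.61 and Tgfbr1 from −0.09 to 0.33 with 1 library left out, and Ltbp1 was −0.09 with all libraries but APB5 replicate 3. In IgG+Mino against IgG the Xist covariate gave 0.24 for Tgfb3, 0.04 for Ltbp1, 0.07 for Ltbp2, 0.57 for Tgfbr2, 0.18 for Eng and 1.30 for Tgfbi, and library size alone −0.02 for Tgfb1 and −0.01 for Tgfbr1. With 1 library left out, Tgfb1 ranged from −0.06 to 0.22, Tgfb3 from −0.08 to 0.01 and Tgfbr1 from −0.16 to 0.25. In APB5+Mino against IgG+Mino, Ltbp2 was 0.01 with library size and 0.41 with the replicate block, and ranged from −0.55 to 0.74, and Ltbp1 from −0.50 to 0.10. In the interaction, Tgfbr1 was −0.04 with the Xist covariate, and with 1 library left out Ltbp2 ranged from −1.18 to 0.12, Tgfbr1 from −0.12 to 0.29, Acvrl1 from −0.06 to 0.20 and Tgfbi from −2.12 to 0.27. The causes were not tested.

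Counts of all genes called depended on the fit. For APB5 against IgG they were 0, but 98 with DESeq2, 5 with no filter, 7 with all 12 libraries, 1480 with the Xist covariate, 21 without APB5 replicate 3 and 48 with all libraries but that one. For APB5+Mino against APB5, 977 became 5 with library size, 5128 with DESeq2, 1631 with at least 10 counts in every library, 4463 with all 12 libraries, 5584 with the Xist covariate, 2531 with all libraries but APB5 replicate 3, and 0 to 5484 with 1 library left out. For IgG+Mino against IgG, 6 became 55 with DESeq2, 16 with no filter, 1 with at least 10 counts, 13 without IgG replicate 3, and 0 with all 12 libraries. For APB5+Mino against IgG+Mino, 1621 became 3532 with DESeq2, 0 with all 12 libraries, and 0 to 3358 with 1 left out. For the interaction, 3 became 717 with DESeq2, 34 with no filter, 979 with the Xist covariate, and 0 to 125 with 1 left out. Tgfbi, at 34 to 108 counts outside APB5 replicate 3, was the member most limited by depth.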
